A study of Mus musculus with 12 samples.

Results

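The replication-dependent histone genes encode the linker histone H1 and the core histones H2A, H2B, H3 and H4, which package newly made DNA. They were taken as the rows of the count table whose symbol begins with Hist1h to Hist4h, without the 1 name ending in -ps, which gave 47 of 21247 genes. By type these were 5 H1, 7 H2A, 13 H2B, 10 H3 and 12 H4 genes, and by gene cluster 41 Hist1, 3 Hist2, 2 Hist3 and 1 Hist4 genes. The testis members *Hist1h1t*, *Hist1h2aa* and *Hist1h2ba* were not among these 47 rows.

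RNA-seq of eye-skin from mice given as 6 weeks old was compared between 4 ft/ft and 4 ft/ftMyD88-/- libraries. Both groups carry ft/ft, a point mutation that arose spontaneously and removes filaggrin (*Flg*), a structural protein of the cornified epidermis, on a BALB/c background. The ft/ftMyD88-/- mice came from an in-house cross of ft/ft with mice deficient in MyD88 (*Myd88*), the adaptor of toll-like and IL-1 family receptors, and the study describes its ft/ft mice as free of the matted mutation in *Tmem79*. The comparison asks what loss of MyD88 changes in filaggrin-deficient skin, and wildtype libraries were not analysed here.

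Histone genes of this kind are transcribed mainly in S phase, when DNA is copied. Their mRNAs usually have no introns and no poly(A) tail, and end instead in a short stem-loop that the protein SLBP binds and that is cut with the help of the U7 snRNP. Some members also give longer, polyadenylated transcripts, and replacement variants such as H3.3 and H2A.Z are made throughout the cell cycle from polyadenylated mRNAs.

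The ft/ft libraries held 18941705 to 29255129 counts and the ft/ftMyD88-/- libraries 15802957 to 27037997. *Myd88* was 30.7 ± 4.7 CPM (counts scaled to a common library size with TMM factors; SD, n = 4) in ft/ft and 41.2 ± 7.3 CPM in ft/ftMyD88-/- (log2 fold change 0.42, edgeR adjusted p = 0.048), so it was not lower in the libraries labelled as lacking MyD88. A count per gene does not resolve exons, and the labels of these libraries could not be checked with it. *Tmem79* was 59.2 ± 2.9 CPM in ft/ft and 16.4 ± 2.1 CPM in ft/ftMyD88-/- (log2 fold change -1.85, adjusted p = 5.08e-07). The labels give female mice for both groups, but the Y-linked *Ddx3y* was 65.0 CPM in ft/ft and 0.147 CPM in ft/ftMyD88-/- and *Xist* was 0.0107 and 49.4 CPM, so the groups differ in sex-linked transcripts as well as in genotype, and an effect of MyD88 cannot be told apart from one of sex. The *Myd88*, *Tmem79* and sex-linked values leave the labels of genotype, sex and strain in doubt, and ft/ftMyD88-/- stands below for the libraries so labelled. The 6 keratinocyte markers summed to 17033 to 26867 CPM in all libraries.

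The 3′ ends of the histone genes were read from the GENCODE M21 transcripts of GRCm38. A stem-loop of 16 bases, with a 6-base stem that pairs without mismatch, starts with GG and encloses a 4-base loop starting with TT, was present in 35 of the 47 genes, which held 77.5% of all histone counts. The 16 bases occurred in 5 versions, carried by 20, 7, 5, 2 and 1 genes in the order of the first 5 lines below. These 5 lines give 1 gene for each version, and the last 2 are the *Hist1h4m* and *Hist1h4n* genes, whose near identity matters for a result given later. Capitals mark the stem-loop.
Hist1h1c: tccaaaaGGCTCTTTTCAGAGCCaccactc
Hist1h4h: aaccaaaGGCCCTTTTCAGGGCCgcccaca
Hist1h2bb: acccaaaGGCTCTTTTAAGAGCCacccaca
Hist1h4i: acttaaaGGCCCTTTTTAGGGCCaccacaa
Hist1h4j: ccctaaaGGTCCTTTTCAGGACCaccacat
Hist1h4m: aactaaaGGCCCTTTTCAGGGCCatc
Hist1h4n: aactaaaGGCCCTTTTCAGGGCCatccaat

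In the same order these 3′ UTR elements lie at chr13:23739505-23739534 (plus strand), chr13:23531451-23531480 (plus), chr13:23747196-23747225 (plus), chr13:22040959-22040988 (minus), chr13:21735430-21735459 (plus), chr13:21812122-21812147 (plus) and chr13:21831791-21831820 (minus). No stem-loop of this form was found in 12 genes, among them the H2B genes *Hist1h2bc* and *Hist2h2be*, whose annotated transcript does not hold it. Others of the 12 have short annotated transcripts, down to 312 bases for the H4 gene *Hist1h4k*, which may end before a stem-loop. The number of genes with a stem-loop thus depends on the annotation.

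Promoter windows from 250 bases before to 50 bases after the start were taken from RefSeq (GRCm38.p6), which matched 42 of the 47 genes and held none for *Hist1h2bc*, *Hist1h3a*, *Hist1h3f*, *Hist2h2be* and *Hist2h4*. The CCAAT box (CCAAT on either strand), bound by NF-Y, was in 34 of the 42 (81.0%) and in 37.4% of all 32851 windows. It was in every H1, H2A, H2B and H3 window and in 3 of 11 H4 windows (27.3%). The octamer ATTTGCAT on either strand, bound by Oct1, was in 3 of 7 H2A and 4 of 11 H2B windows, in no H1, H3 or H4 window and in 1.74% of all windows. The TATA box, searched as TATAAA on either strand, was in 57.1% of the histone windows and in 13.6% of all windows. Matches of different motifs can share bases. Windows of neighbouring H2A and H2B genes on opposite strands can overlap, so that a site is counted for both types. This holds for the octamer of *Hist1h2ae* (chr13:23571171-23571470) and *Hist1h2bg* (chr13:23571150-23571449). A match was counted anywhere in the window, and its distance from the start was not considered, so a match need not be a working element. The 150 bases before the start are shown for the Hist1 genes that differed between the groups below, with these motifs in capitals.
Hist1h2bb: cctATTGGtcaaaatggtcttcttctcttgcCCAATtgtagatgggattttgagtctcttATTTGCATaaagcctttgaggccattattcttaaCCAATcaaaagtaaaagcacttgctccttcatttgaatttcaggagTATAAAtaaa
Hist1h4h: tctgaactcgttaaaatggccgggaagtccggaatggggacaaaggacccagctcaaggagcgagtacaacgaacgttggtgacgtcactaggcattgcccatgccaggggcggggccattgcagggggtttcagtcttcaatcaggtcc
Hist1h4m: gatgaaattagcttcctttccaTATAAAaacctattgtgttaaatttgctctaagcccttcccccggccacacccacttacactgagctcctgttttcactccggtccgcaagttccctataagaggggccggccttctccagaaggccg

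These lie at chr13:23746584-23746733, chr13:23530894-23531043 and chr13:21811596-21811745, all on the plus strand. The H2B gene *Hist1h2bb* held all 3 letter strings in its window, *Hist1h4m* held TATAAA only, and *Hist1h4h* held none of them.

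Histone genes made up a small part of every library. They took 0.0158% to 0.0178% of all counts in ft/ft and 0.0164% to 0.0210% in ft/ftMyD88-/-. Their summed level was 190.9, 189.2, 167.3 and 183.0 CPM in ft/ft and 186.5, 195.8, 150.5 and 195.5 CPM in ft/ftMyD88-/-. The groups overlapped, with means of 182.6 ± 10.7 and 182.1 ± 21.5 CPM (SD, n = 4 each) and a log2 ratio of -0.0045.

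The linker histone gene *Hist1h1c* (H1.2) alone held 47.6% to 54.1% of the histone counts of a library, and with the H2B gene *Hist1h2bc* 64.5% to 71.9%. The summed level thus mostly follows these genes. Without both, it was 67.9, 56.8, 53.8 and 64.1 CPM in ft/ft. In ft/ftMyD88-/- it was then 53.5, 55.05, 48.01 and 56.3 CPM, still with overlapping groups. H1 genes together took 51.1% to 58.5% of histone counts in ft/ft and 53.9% to 58.0% in ft/ftMyD88-/-, and H2B genes 26.4% to 28.97% and 26.2% to 27.2%. H4 genes took 10.8% to 14.8% and 11.1% to 13.5%. H2A and H3 genes stayed under these shares, with 1.73% to 2.49% and 2.47% to 3.32% in ft/ft and 1.78% to 2.37% and 2.48% to 3.15% in ft/ftMyD88-/-. The make-up by type overlapped between the groups for all 5 types.

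Per kilobase of exon, the mean over the 8 libraries was 60.7 CPM per kb for *Hist1h1c*, 26.6 for *Hist1h2bc*, 14.01 for the H4 gene *Hist1h4i* and 11.9 for the H4 gene *Hist1h4h*. All other histone genes were at or below the 3.27 CPM per kb of the H2B gene *Hist3h2ba*, the median was 0.615, and the lowest was the H4 gene *Hist4h4* with 0.0969. On this scale 3 of the replacement variants stood above *Hist1h1c*. *H3f3b*, which encodes H3.3, was at 229 CPM per kb in ft/ft and 240 in ft/ftMyD88-/-, *H2afz* (H2A.Z) at 114 and 179, and the linker variant *H1f0* at 102 and 100.4.

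A poly(A) signal (AATAAA or ATTAAA) stood in the last 50 bases of the annotated transcript of 13 histone genes, which held 71.8% of the histone counts. Their median level was 1.55 CPM per kb, against 0.486 for the 34 genes without one. The 13 included *Hist1h1c*, *Hist1h4i*, *Hist1h4h*, *Hist3h2ba* and *Hist2h2be*, but also the lowest gene, *Hist4h4*, and the second highest, *Hist1h2bc*, was not among them. The 20 genes whose transcript runs over 100 bases past the stem-loop held 71.9% of the counts, and the 15 that end within 100 bases of it held 5.60%, of which *Hist1h4h* had most. These are descriptions of the annotation beside the levels: the labels name total RNA and the study's methods name poly(A) purification, and libraries of the other kind were not analysed here. Of 17 other RNAs without a poly(A) tail that were listed, 3 were in the table. The largest was *Rn7sk*, the RNA that holds the P-TEFb kinase inactive, at 7.34 ± 1.2 CPM in ft/ft and 5.38 ± 1.3 CPM in ft/ftMyD88-/- (adjusted p = 0.11). The other 2, *Scarna2* and the telomerase RNA *Terc*, were under 1 CPM in both groups.

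Members of the family resemble each other, which limits what short reads can assign. The share of 50-base windows of a gene's exons found in no other annotated gene was at least 90% in 7 genes (55.5% of histone counts), 50% to 90% in 22 genes (38.5%) and under 50% in 18 genes (6.01%). It was 91.5% for *Hist1h1c*, 100% for *Hist2h2be*, 54.2% for *Hist1h4h*, 59.9% for *Hist1h2bb* and 10.2% for *Hist1h4m*. Per kb of unique windows in place of exon, the mean was 68.5 CPM for *Hist1h1c* and 40.04 for *Hist1h2bc*. On that scale *Hist1h4h* (24.4) stood above *Hist1h4i* (21.1), the reverse of their order per kb of exon. Levels of genes with few unique windows are uncertain, as are those of *Hist1h1e* and *Hist1h2be*, which overlap on the same strand, and of *Hist3h2a*, which overlaps *Trim17*.

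**Figure D1:**
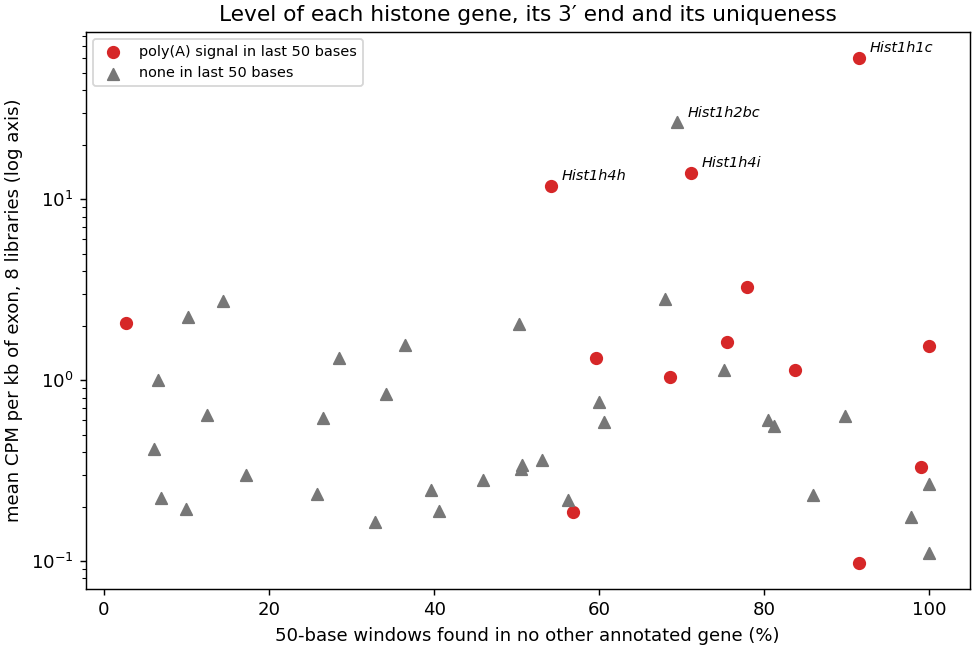
Mean CPM per kb of exon over the 8 libraries (log axis) for each of the 47 histone genes against the percentage of its 50-base windows found in no other annotated gene. Circles have a poly(A) signal in the last 50 bases of the annotated transcript and triangles do not. 4 genes stand above 10 CPM per kb, and 3 of these are circles.

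Between the groups, 1 histone gene was higher and 3 were lower in ft/ftMyD88-/- at an adjusted p under 0.05, 4 of the 47 tested. Over all 20454 tested genes 23.3% passed, 10.9% higher and 12.3% lower. With library size only in place of TMM, 4638 of all genes passed as higher and 1326 as lower. The values of 4 histone genes did not overlap between the groups, against 26.7% of all genes. At an unadjusted p under 0.05 there were 6 histone genes, where 36.9% of all genes passed. Of the 47 fold changes 20 were above 0, as were 51% of those of all genes, and their median was -0.10, against 0.01 for all tested genes. With library size only the histone median was 0.08 and that of all genes 0.19, so the sign of the histone median turned while it stayed below that of all genes.

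Many of the histone genes had few counts, at which fewer genes of any kind passed. Of the histone genes, 21 had a mean under 10 counts, and 1 of these passed where 5.68% of all genes at that level did. Of the 17 with means of 10 to 50 counts 1 passed (16.9% of all genes), of the 7 with 50 to 500 counts 2 passed (28.9%), and neither of the 2 above 500 counts did (31.1%). In bulk skin, fewer cells that make a histone mRNA and less of it per cell cannot be told apart.

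The H2B gene *Hist2h2be*, known for polyadenylated transcripts outside S phase, was lower in ft/ftMyD88-/-. Its level was 5.44, 4.84, 5.52 and 5.94 CPM in ft/ft and 2.45, 3.09, 2.62 and 2.62 CPM in ft/ftMyD88-/-, from 99 to 155 and 43 to 84 counts. Each ft/ftMyD88-/- library was below each ft/ft library. The log2 fold change was -1.01 (SE 0.154, adjusted p = 9.07e-04), and it passed the 0.05 threshold in all 17 alternative fits.

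*Hist2h2be* lies at chr3:96221119-96223738 (GRCm38), on the plus strand, as a gene with 1 exon. *Flg* lies 2.948 Mb and *Tmem79* 7.892 Mb away on the same chromosome. Within 2 Mb of *Hist2h2be*, 21 of 88 other tested genes passed (23.9%), 4 higher and 17 lower, 5 of them by at least 1 on the log2 scale. Over all tested genes 23.3% passed, 10.9% higher and 12.3% lower. From *Tmem79* to *Hist2h2be*, a stretch that holds *Flg*, 51 of 199 passed, 20 higher and 31 lower. On all of chromosome 3, 231 of 806 passed (28.7%), 102 higher and 129 lower. Whether alleles near *Flg* differ between the groups was not tested. The H3 gene *Hist2h3c2* in the same cluster was 1.59, 1.49, 1.34 and 1.57 CPM in ft/ft and 1.93, 1.80, 1.60 and 1.40 CPM in ft/ftMyD88-/-, with overlapping groups and a log2 fold change of 0.17 (adjusted p = 0.579). The H4 gene *Hist2h4*, with a mean of 13.6 counts, did not pass either (log2 fold change -0.28, adjusted p = 0.716).

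The H4 gene *Hist1h4h* was 7.12, 5.67, 6.08 and 6.75 CPM in ft/ft and 4.16, 4.74, 4.93 and 5.12 CPM in ft/ftMyD88-/-. The groups did not overlap, but the highest ft/ftMyD88-/- library was close to the lowest ft/ft library. The log2 fold change was -0.44 (SE 0.141, adjusted p = 0.0428), and 9 of 17 alternative fits ended the call, with adjusted p from 0.0234 to 0.191. Leaving out ft/ft replicate 1, 3 or 4 or any 1 ft/ftMyD88-/- library ended the call.

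The H2B gene *Hist1h2bb*, named after its values were seen because its mean was 9.13 counts, was 0.600, 0.473, 0.446 and 0.575 CPM in ft/ft and 0.307, 0.184, 0.238 and 0.244 CPM in ft/ftMyD88-/-. These rest on 8 to 15 counts and 4 to 7 counts, and the groups did not overlap. The log2 fold change was -1.11 (SE 0.352, adjusted p = 0.0396), which 10 of 17 alternative fits did not keep under 0.05. Leaving out any 1 ft/ft library, or ft/ftMyD88-/- replicate 2, 3 or 4, ended the call, with adjusted p from 0.0546 to 0.0977. Over all 17 fits the adjusted p ran from 0.0261 to 0.0977.

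The 1 histone gene that was higher was the H4 gene *Hist1h4m*, at 0.772, 0.546, 0.502 and 0.383 CPM in ft/ft and 1.62, 1.21, 1.02 and 1.16 CPM in ft/ftMyD88-/-, or 9 to 18 and 19 to 37 counts. The groups did not overlap, and the log2 fold change was 1.18 (SE 0.290, adjusted p = 0.0121). It passed in 17 of 18 alternative fits. It shares 317 of its 353 windows of 50 bases with *Hist1h4n*, as the shared 3′ ends above show. *Hist1h4n* was 1.24, 1.49, 0.837 and 1.30 CPM in ft/ft and 1.53, 1.40, 0.646 and 0.915 CPM in ft/ftMyD88-/-, with overlapping groups. Counted as 1 gene, the pair was 2.01, 2.04, 1.34 and 1.69 CPM and 3.16, 2.61, 1.67 and 2.07 CPM, overlapping, with a log2 fold change of 0.42 (SE 0.239, adjusted p = 0.234). The call of *Hist1h4m* was thus lost when the 2 near copies were summed. *Hist1h4n* was the larger of the 2 in ft/ft and had overlapping groups, so the sum does not show whether reads were misassigned.

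**Figure D2:**
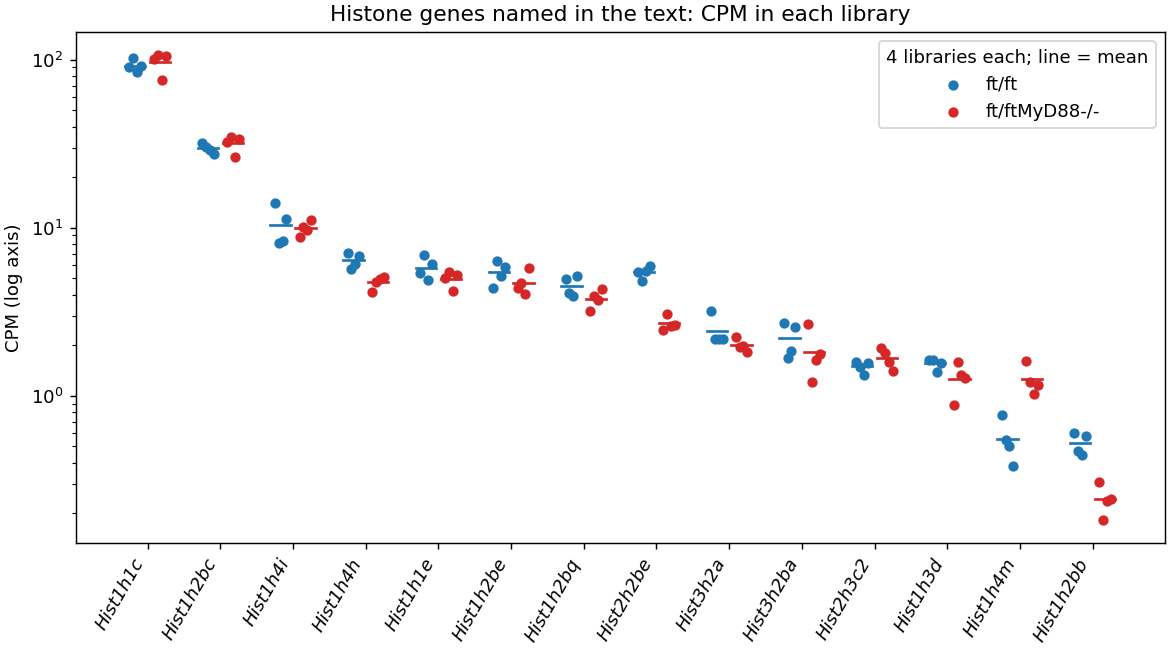
CPM (log axis) in each library for 14 histone genes, those with the 12 highest mean CPM and those that passed the test. Points are libraries, 4 per group, and lines are group means. *Hist2h2be*, *Hist1h4h* and *Hist1h2bb* sit lower and *Hist1h4m* higher in all 4 ft/ftMyD88-/- libraries, and the groups overlap in the other genes.

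The 3 members with the highest mean CPM did not pass. *Hist1h1c* was 90.9, 102, 84.6 and 91.5 CPM in ft/ft and 101, 106, 76.0 and 106 CPM in ft/ftMyD88-/-. In ft/ftMyD88-/-, replicate 3 was below all ft/ft libraries, replicate 1 was within their range, and replicates 2 and 4 were above it. The log2 fold change was 0.07 with a 95% interval from -0.17 to 0.31 (adjusted p = 0.695).

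*Hist1h2bc* was 32.1, 30.04, 29.01 and 27.5 CPM in ft/ft and 32.5, 34.8, 26.5 and 33.6 CPM in ft/ftMyD88-/-, with replicate 3 again the lowest. The log2 fold change was 0.10, with an interval from -0.12 to 0.33 (adjusted p = 0.516). *Hist1h4i* was 13.97, 8.07, 8.37 and 11.3 CPM in ft/ft and 8.85, 10.1, 9.66 and 11.2 CPM in ft/ftMyD88-/-. Its ft/ft libraries spread over the whole range of the other group, and the log2 fold change was -0.07 with an interval from -0.45 to 0.30 (adjusted p = 0.795).

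The linker gene *Hist1h1e* was 5.36, 6.87, 4.91 and 6.06 CPM in ft/ft and 5.04, 5.44, 4.18 and 5.24 CPM in ft/ftMyD88-/- (log2 fold change -0.23, adjusted p = 0.322). The overlapping *Hist1h2be* gave 4.37, 6.36, 5.19 and 5.87 CPM and 4.38, 4.67, 4.01 and 5.73 CPM (log2 fold change -0.22, adjusted p = 0.376). In both genes the groups overlapped. *Hist1h2bq* (H2B), of which 2.68% of windows are unique, had a log2 fold change of -0.26 (adjusted p = 0.274), *Hist3h2a* (H2A) one of -0.29 (adjusted p = 0.327), *Hist3h2ba* one of -0.28 (adjusted p = 0.489) and the H3 gene *Hist1h3d* one of -0.30 (adjusted p = 0.379). These 4 had overlapping groups with means between 1.56 and 4.53 CPM in ft/ft and between 1.27 and 3.79 CPM in ft/ftMyD88-/-.

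By type, the median log2 fold change was 0.07 for H1 with 0 of 5 called, -0.0086 for H2A with 0 of 7, -0.26 for H2B with 2 lower of 13, 0.20 for H3 with 0 of 10, and -0.13 for H4 with 1 higher and 1 lower of 12. The H2B gene *Hist1h2bj*, with 0, 0, 0 and 2 counts in ft/ft and 1, 8, 3 and 3 counts in ft/ftMyD88-/-, had the largest fitted fold change and did not pass (adjusted p = 0.0798). At such counts the fitted fold depends on the prior count, and none is given. Hist1 genes fall into 2 blocks of chromosome 13. The 16 between 21715763 and 22043676 had a median of -0.097 and 1 gene called, and the 25 between 23531050 and 23764406 had a median of 0.027 and 2 called.

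**Figure D3:**
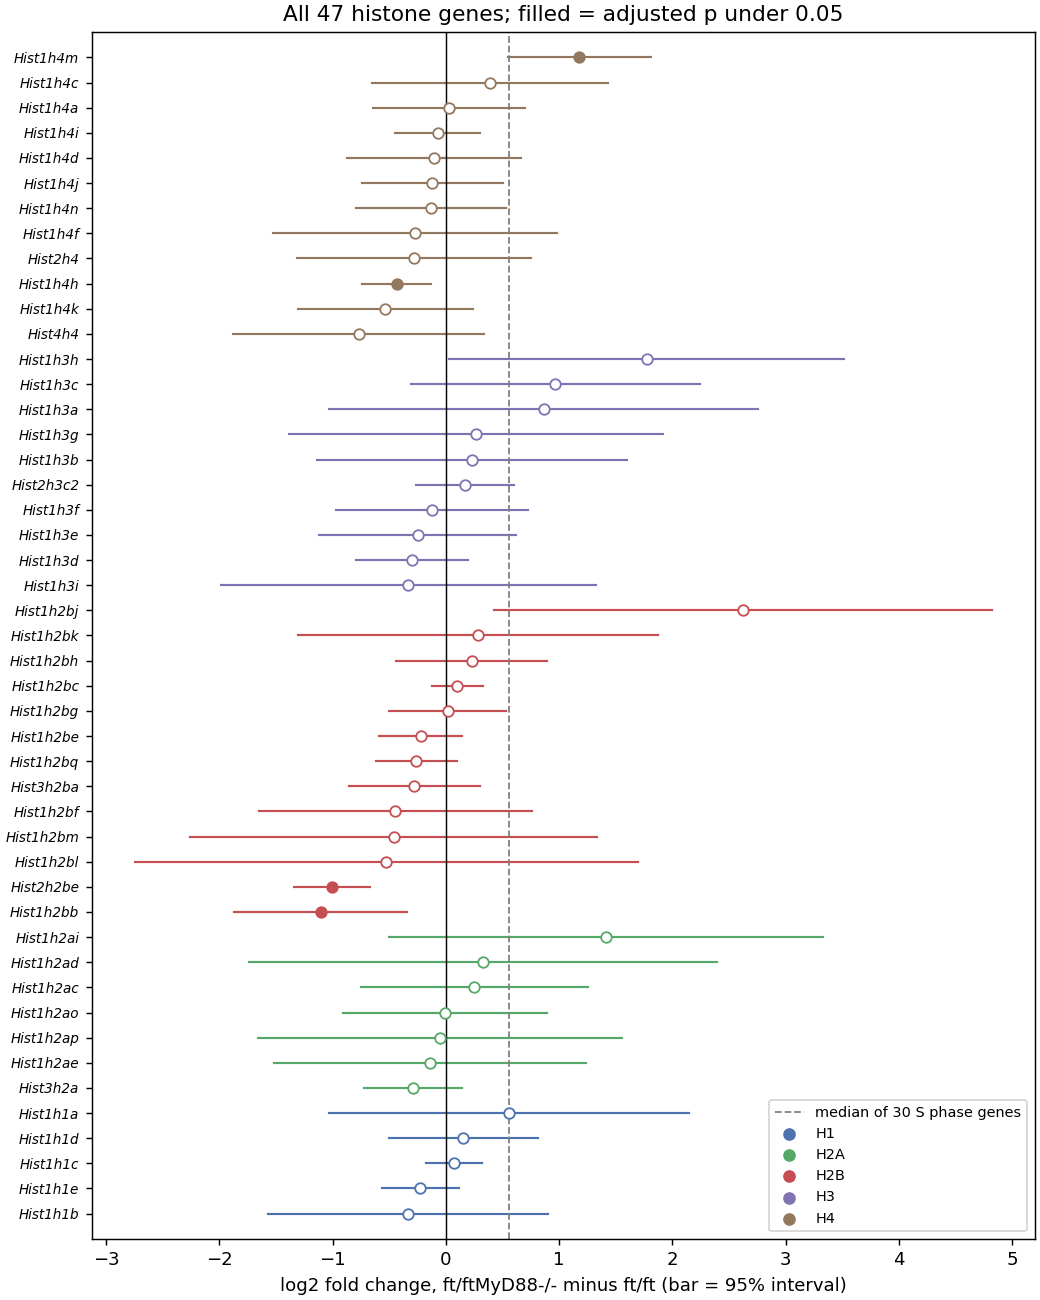
Log2 fold change, ft/ftMyD88-/- minus ft/ft, of all 47 histone genes with its 95% interval, ordered by histone type. Filled points have an adjusted p under 0.05 (*Hist1h4m* higher, *Hist1h4h*, *Hist2h2be* and *Hist1h2bb* lower), and the dashed line is the 0.56 median of 30 S phase genes. 41 of the 47 intervals include 0.

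Other genes of S phase differed between the groups. In a list of 30 DNA replication genes 24 were higher and none lower (26 at an unadjusted p under 0.05, all higher), with a median log2 fold change of 0.56. The helicase subunit *Mcm5* went from 35.4 ± 3.5 to 65.6 ± 10 CPM (log2 fold change 0.89, adjusted p = 3.9e-04), the sliding clamp *Pcna* from 81.3 ± 5.5 to 131 ± 23 CPM (0.69, adjusted p = 0.00159), the ribonucleotide reductase subunit *Rrm2* from 22.04 ± 1.4 to 40.8 ± 5.1 CPM (0.89, adjusted p = 2.17e-04) and *Uhrf1*, which couples DNA methylation to replication, from 18.6 ± 1.0 to 37.5 ± 3.4 CPM (1.01, adjusted p = 6.16e-05). In a list of 20 G2/M genes 17 were higher and none lower, with a median of 0.61. Over all tested genes 10.9% were higher.

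The summed level of the 30 S phase genes was 606 to 635 CPM in ft/ft and 828 to 1047 CPM in ft/ftMyD88-/-, without overlap. Histone CPM per 100 S phase CPM, a ratio within a library that no scaling changes, was 31.5, 29.8, 26.8 and 29.9 in ft/ft and 21.6, 20.5, 18.2 and 18.7 in ft/ftMyD88-/-. Every ft/ftMyD88-/- library was below every ft/ft library. The histone sums overlapped, so this separation follows from the S phase sums and is no further result on the histone genes. Without *Hist1h1c* and *Hist1h2bc* the ratio was 11.2, 8.94, 8.60 and 10.5 against 6.19, 5.75, 5.80 and 5.37, again without overlap. The labels name total RNA and the study's methods poly(A) purification, and how far mRNAs without a tail were captured was not tested. These ratios therefore need not follow the histone mRNA made in S phase.

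For all 9 histone genes with a mean of at least 50 counts, the upper bound of the 95% interval lay below the S phase median of 0.56. This held for 17 of all 47 genes, and in the other 30 the upper bound lay above it.

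**Figure D4:**
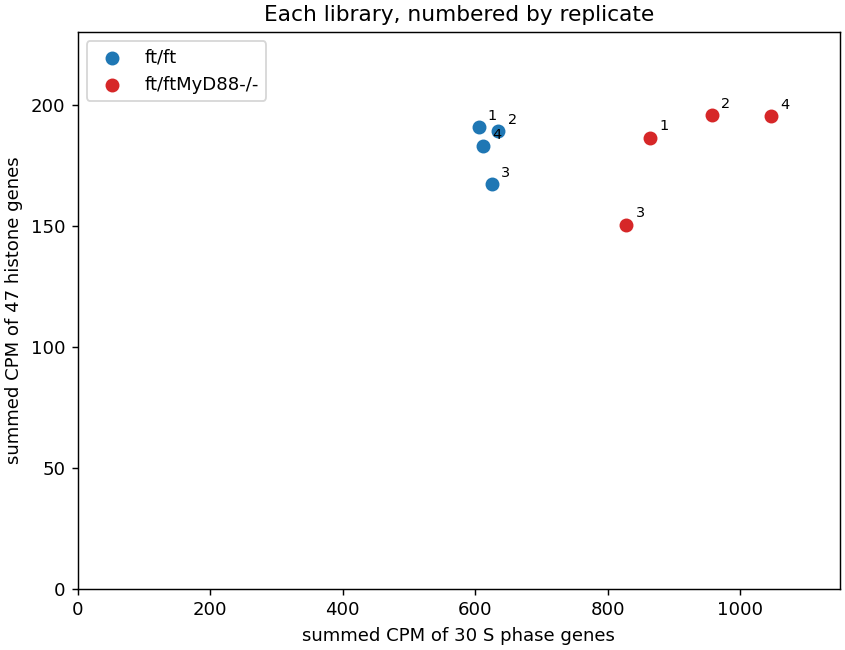
Summed CPM of the 47 histone genes against that of 30 S phase genes in each library, numbered by replicate. The ft/ft libraries sit at 606 to 635 S phase CPM and the ft/ftMyD88-/- libraries at 828 to 1047, while the histone sums overlap (167.3 to 190.9 and 150.5 to 195.8 CPM).

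Genes that act on histone genes were described with lists of their own. The counts below stand beside 10.9% higher and 12.3% lower over all tested genes. Among genes with a mean of 500 counts or more, 31.1% passed in either direction. Of 16 genes for histone gene transcription 6 were higher and none lower, with a median log2 fold change of 0.19. These were the S phase entry factors *E2f1* (0.62, adjusted p = 0.00539), *E2f2* (0.62, adjusted p = 0.0171) and *E2f3* (0.67, adjusted p = 0.00701) and the kinase and cyclins *Cdk2* (0.36, adjusted p = 0.0136), *Ccne1* (0.83, adjusted p = 0.00157) and *Ccne2* (0.74, adjusted p = 0.0184). *Npat*, the coactivator of histone genes that cyclin E and CDK2 phosphorylate, was 15.2 ± 0.83 and 17.4 ± 0.71 CPM and did not pass (0.20, adjusted p = 0.147). The H4 promoter factor *Hinfp* (0.34, adjusted p = 0.0604), the octamer factor *Pou2f1* (-0.33, adjusted p = 0.0905) and the NF-Y subunits *Nfya*, *Nfyb* and *Nfyc* (0.16, 0.01 and -0.07) did not pass either.

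Of 18 genes for the 3′ processing of histone mRNA 3 were higher and none lower, with a median of 0.23. With so few called beside the shares of all genes above, this is no result on the list as a whole. They were *Casp8ap2* (FLASH, a partner of the U7 snRNP) with 0.35 (adjusted p = 0.0341), the exonuclease *Eri1*, which acts on the stem-loop end, with 0.35 (adjusted p = 0.0352), and *Srrt* (ARS2) with 0.41 (adjusted p = 0.00717). The stem-loop binding protein *Slbp* was 21.3 ± 1.6 CPM in ft/ft and 25.7 ± 1.2 CPM in ft/ftMyD88-/- and missed the threshold (0.27, adjusted p = 0.0551), and the U7-specific subunits *Lsm10* (0.09, adjusted p = 0.63) and *Lsm11* (-0.27, adjusted p = 0.134) did not pass.

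Of 16 histone chaperones and related genes 4 were higher and 1 lower, with a median of 0.17. *Asf1b*, the chaperone tied to proliferation, rose from 5.94 ± 0.60 to 11.4 ± 1.7 CPM (0.94, adjusted p = 7.86e-04), and its paralogue *Asf1a* had a log2 fold change of -0.06 (adjusted p = 0.719). The CAF-1 subunits *Chaf1a* (0.38, adjusted p = 0.0251) and *Chaf1b* (0.60, adjusted p = 0.0102) and the H3-H4 chaperone *Nasp* (0.47, adjusted p = 0.00213) also rose, and the histone importin *Ipo4* fell (-0.38, adjusted p = 0.0223). *Hira*, which deposits H3.3, did not pass (0.20, adjusted p = 0.231).

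Of 11 replacement histone genes 3 were higher and none lower, with a median of 0.09. *H2afz* was 245, 175, 208 and 180 CPM in ft/ft and 278, 302, 285 and 410 CPM in ft/ftMyD88-/- (0.66, adjusted p = 0.00674), without overlap. *Cenpa*, the centromeric H3, rose from 18.5 ± 2.5 to 31.985 ± 7.3 CPM (0.79, adjusted p = 0.00355) and *H2afx*, the H2A variant phosphorylated at DNA breaks, from 18.2 ± 1.4 to 25.3 ± 3.4 CPM (0.47, adjusted p = 0.012). The H3.3 genes *H3f3a* (0.20, adjusted p = 0.367) and *H3f3b* (0.07, adjusted p = 0.674) and the linker variant *H1f0* (-0.02, adjusted p = 0.907) did not pass. With library size only in place of TMM, the medians of the S phase, G2/M, transcription, processing, chaperone and replacement lists were 0.74, 0.78, 0.37, 0.41, 0.35 and 0.27, all above the 0.19 of all genes. The numbers of higher genes were then 11 of 16 for transcription, 12 of 18 for processing (6 with RLE normalization) and 10 of 16 for chaperones, and *Ipo4* no longer passed as lower.

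**Figure D5:**
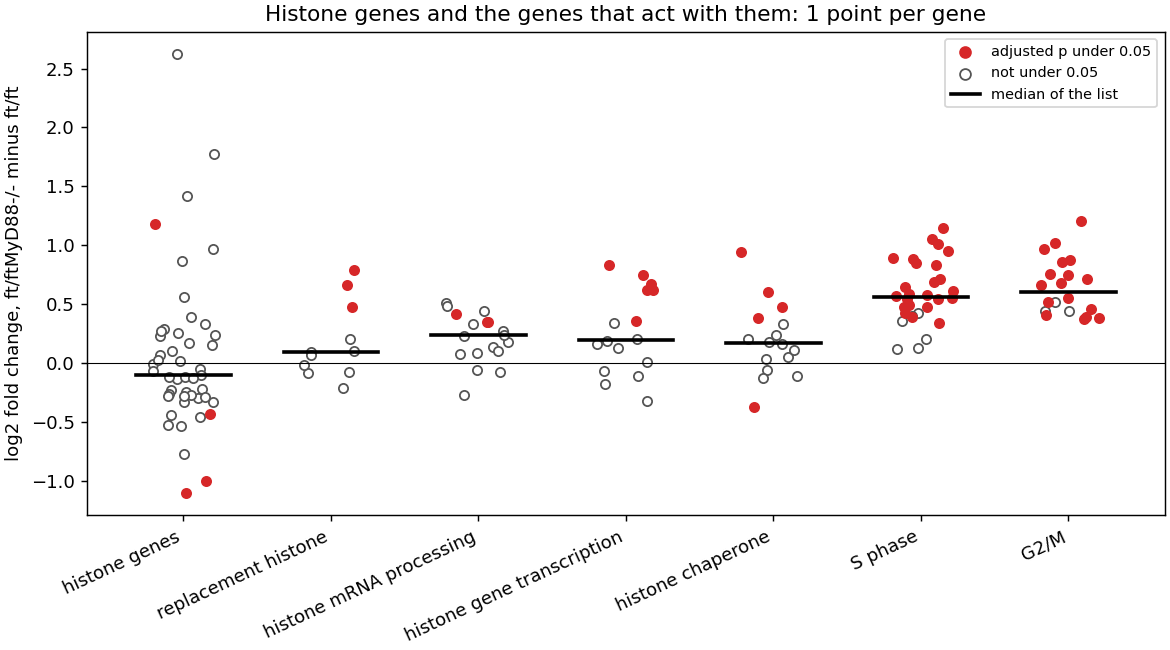
Log2 fold change, ft/ftMyD88-/- minus ft/ft, of each gene in the histone set and in 6 lists of related genes. Filled points have an adjusted p under 0.05 and bars are medians, which are -0.10 for the histone genes and 0.56 and 0.61 for the S phase and G2/M lists.

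Markers of several cell types moved with the groups. All 6 skeletal muscle genes were lower (7228 to 9789 CPM in ft/ft, 2798 to 5213 in ft/ftMyD88-/-), and all 6 T cell genes were higher (13.7 to 19.2 and 24.8 to 32.4 CPM). Hair matrix genes, of which 3 of 6 were higher, ranged from 105 to 196 and from 162 to 1425 CPM. Neutrophil genes summed to 31.1 to 263 and 406 to 967 CPM, but only 1 of 5 was higher (*Csf3r*, with overlapping groups). *S100a8* (25.8 and 242 CPM, adjusted p = 0.126) and *S100a9* (39.2 and 368 CPM, adjusted p = 0.123) held most of the ft/ftMyD88-/- sum and did not pass. *Mmp9* had a log2 fold change of -0.32. B and plasma cell genes summed to 17.7 to 20.8 and 22.4 to 44.4 CPM, with 1 of 6 higher (*Jchain*, 1.63 and 15.3 CPM). Fold changes were positive in 4 of these 6 and negative in *Ighm* (-0.26) and *Ms4a1* (-0.79). Of the 6 keratinocyte genes 2 were lower, and of the 6 male germ cell genes 1 (*Ddx4*) was in the table and did not pass. Their part in the histone and S phase values was not tested.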

How the data were processed

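RNA-seq libraries of eye-skin from 4 ft/ft and 4 ft/ftMyD88-/- mice were used, grouped by their labels. The authors deposited raw counts per gene, not normalized: per the methods, reads of poly(A)-purified TruSeq libraries were mapped to GRCm38.p6 (HISAT, tophat2) and assigned to genes by HTSeq with its defaults, which leave out reads that align to several places or touch several genes. The labels instead give total RNA, a protocol for fixed tissue and Cell Ranger. Versions and annotation release are not given in the sources used here. No per-sample column was left unused (0).

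The test was edgeR 4.0.16 in R 4.3.3, on the 20454 genes whose counts summed to 10 or more (no filter by group, TMM, glmQLFit with robust = TRUE, glmQLFTest, no covariate, two-sided, Benjamini-Hochberg over all tested genes, threshold 0.05). All 47 histone genes were tested. 36 had a count in every library, and 0 counts allow up to 3 counts, or 0.102 to 0.183 CPM, for counting error only. Alternatives included DESeq2 1.42.0 and limma 3.58.1 (voom). The fit was also run on simulated data, with larger changes and higher counts than most histone genes had, so that run does not bear on their calls. SE is the log2 fold change divided by the square root of F, and 95% intervals use it with each gene's degrees of freedom. The study gives 4 mice per group for the RNA-seq, which the replicate labels do not tie to single animals.

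The histone genes named are the 12 with the highest mean CPM, those that passed with a mean of at least 10 counts, and *Hist1h1c*, *Hist1h2bc* and *Hist2h2be*. Members and lists were chosen with earlier results of these data known.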

Additional observations from a re-analysis of the deposited data

Results flagged for a closer look

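The H2A gene *Hist3h2a* was at 3.21 CPM in ft/ft replicate 1, while the other 3 ft/ft libraries were at 2.18 to 2.19 CPM. The gap to the nearest library was 0.990 of the group's range, past the 95% limit of Dixon's test. Chance puts about 1 in 20 groups past this limit, and 30 groups were examined. Without that library the log2 fold change of *Hist3h2a* still did not pass the test.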

How the results depend on the processing

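*Hist2h2be* passed in all 17 alternatives, with log2 fold changes from -1.08 to -0.83. With library size only, 1 histone gene was lower, the median log2 fold change was 0.076 and the log2 ratio of summed CPM 0.17, as the median of all genes moved to 0.19. At an adjusted p under 0.01 the counts were 0 higher and 1 lower. Over the 9 genes with a mean of at least 50 counts the median was -0.23. Without *Hist1h1c*, *Hist1h2bc* and *Hist2h2be* the log2 ratio of summed CPM was -0.128. Leaving out 1 library gave 1 to 2 higher genes, 1 to 2 lower genes, medians from -0.16 to 0.070 and summed ratios from -0.04 to 0.09, with *Hist1h2bj* added without ft/ft replicate 4. The median was above 0 without ft/ft replicate 1 (0.063) and without ft/ftMyD88-/- replicate 3 (0.070). With the replicate number as a block 1 gene was lower. The numbers did not pair the samples, since deviations of same-numbered libraries correlated at -0.235, 0.041, 0.051 and -0.051. The alternatives chosen after seeing the data counted *Hist1h4m* and *Hist1h4n* as 1 gene (0.42, adjusted p = 0.234), took the genes with at least 50% unique windows (median -0.12, summed ratio -0.0059) and ran *Hist1h2bb* through all settings. Of all genes, 4764 passed in the design used, 1272 where the fold also had to reach 1 on the log2 scale and 2301 at an adjusted p under 0.01. Low counts limit 38 of the 47 genes, which had means under 50 counts.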
